A study of Mus musculus with 3 samples.

Results

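Elastic fibres are built from tropoelastin, the soluble protein encoded by Eln, and are made permanent by lysyl oxidases, secreted or matrix-bound copper enzymes that convert lysine side chains so that they crosslink. The lysyl oxidase family has 5 members in mouse, Lox, Loxl1, Loxl2, Loxl3 and Loxl4, which also act on collagens. In the neonatal lung, elastin is laid down at the tips of the growing alveolar septa, where myofibroblasts are known as its main producers. The 6 genes, taken by name out of 31730 in the deposited matrix, were all present, and they are described here across the deposited cell types and sort gates of lung mesenchyme.

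The cells came from mouse pups at postnatal day 7 that carried 3 alleles, Fgf18CreERT2/+, ROSATDTomato/+ and PdgfrαEGFP/+. CreERT2 is a tamoxifen-dependent recombinase expressed from the Fgf18 locus, tdTomato (tdT) is the reporter that it switches on, and GFP reports the Pdgfra locus. Tamoxifen was given between postnatal days 2 and 5, and alleles and tamoxifen were shared by every gate. Cells were sorted into GFP-high tdT-high, GFP-high tdT-negative and GFP-low tdT-negative gates, with 1 droplet library per gate. The tdT label therefore marks cells in which the Fgf18 locus had been active during the tamoxifen days, and it need not mark every such cell.

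The libraries held 1511 GFP-high tdT-high, 3347 GFP-high tdT-negative and 1284 GFP-low tdT-negative cells, with a median of 22401, 19629 and 19798.5 UMIs per cell in that order and 34506226, 68692834 and 26586489 UMIs in all. A UMI is 1 captured transcript, read at its 3′ end, so levels are given as CPM, a group's summed UMIs of a gene per 1000000 UMIs, with no correction for length. A count of 0 in a whole library allows up to 3 UMIs, which is 0.0869, 0.0437 and 0.113 CPM in the same order. Each gate has 1 library, so no replicate spread exists and no test was made. Intervals are exact 95% intervals that cover counting error only. Genes were called higher or lower from 1.5-fold, on CPM plus a pseudocount of 1 and with at least 10 CPM on the higher side, and the share of all genes called is given beside the members. The GFP-high tdT-high and GFP-high tdT-negative libraries shared 1 cell barcode, the GFP-high tdT-high and GFP-low libraries 0, and the GFP-high tdT-negative and GFP-low libraries 3. Each library held cells with Y-linked UMIs and no Xist UMI (967, 2060 and 651 cells in the same order) and cells with Xist and no Y-linked UMI (326, 744 and 475 cells). The deposited annotation has 10 types, of which 14 combinations of type and gate hold at least 50 cells and are described as groups. Of the marker genes listed for each class, 5 of 9 myofibroblast markers were highest in the MyoFB types, 9 of 9 alveolar fibroblast markers in the MatFB types, 7 of 9 adventitial fibroblast markers in AdvFB and 6 of 6 dividing-cell markers in the DivFB types. Summed epithelial, immune and mesothelial markers stayed at or below 15 CPM in each library, endothelial markers at or below 38.7 CPM and erythroid markers at or below 16.5 CPM. Summed pericyte markers were higher, at 86.8 CPM among GFP-high tdT-high, 97.5 CPM among GFP-high tdT-negative and 93.7 CPM among GFP-low cells. By class, pericyte markers were highest in AdvFB, at 322 CPM, against 74.1 CPM in MyoFB, 66.3 CPM in MatFB and 37.8 CPM in DivFB cells. Endothelial markers were also highest in AdvFB, at 144 CPM, against 19.2 to 21.8 CPM in the other classes.

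The coding stretches tied to the family's chemistry are shown to say what the genes encode; the UMIs themselves were read at the 3′ ends of the transcripts. In elastin, crosslinks form at pairs of lysines set among alanines, and one such stretch is printed with the lysine codons in capitals. In the enzymes, a histidine-rich stretch binds the catalytic copper, and it is printed for 4 of them with the histidine codons in capitals. The sequences come from the GENCODE M21 transcripts (GRCm38, also called mm10), each 33 bases written 5′ to 3′ on the coding strand.
Eln: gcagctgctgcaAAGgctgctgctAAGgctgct
Loxl1: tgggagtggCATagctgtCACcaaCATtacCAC
Loxl2: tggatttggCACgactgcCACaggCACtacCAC
Loxl3: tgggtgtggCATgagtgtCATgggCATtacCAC
Loxl4: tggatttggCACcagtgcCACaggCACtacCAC
The Eln stretch lies in coding exon 18 of 37 at chr5:134718996-134719028 on the minus strand. Of 5 matches to the searched pattern of lysine pairs among alanines, the longest was taken, or the earliest of equally long ones. In each enzyme the copper stretch crosses an exon junction. It falls on chr9:58294359-58294381 and chr9:58293720-58293729 (minus strand, coding exons 3 and 4 of 7) in Loxl1 and on chr14:69682316-69682338 and chr14:69689028-69689037 (plus strand, coding exons 9 and 10 of 13) in Loxl2. In Loxl3 it falls on chr6:83049995-83050017 and chr6:83050116-83050125 (plus strand, coding exons 9 and 10 of 13), and in Loxl4 on chr19:42599877-42599899 and chr19:42598807-42598816 (minus strand, coding exons 10 and 11 of 14). Loxl2 and Loxl4 were identical at 31 of the 33 bases, against 22 of 33 for Loxl1 and Loxl2. The marked histidine codons stand at the same 4 places in all 4 enzymes.

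The genes themselves span chr5:134702593-134747323 (Eln), chr18:52516067-52529867 (Lox), chr9:58287738-58313186 (Loxl1), chr14:69609068-69695834 (Loxl2), chr6:83034173-83052562 (Loxl3) and chr19:42593982-42612813 (Loxl4). The end of Loxl3 shares 1297 bases with Htra2 on the opposite strand. No source used here says whether counting used the strand, so Loxl3 counts may include Htra2 reads. Annotated antisense genes on the opposite strand also share 282 bases with Eln, 1207 with Lox and 74219 with Loxl2. None of these reaches the 3′ end of the member.

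Eln transcripts were found in every cell type of the dataset. Of the 14 groups, MyoFB-Int cells of the GFP-high tdT-high gate had the highest level, though parts of other groups stood higher. Across the 14 groups Eln ran between 1708 CPM in DivFB-G2M cells of the GFP-high tdT-negative gate and 15714 CPM in MyoFB-Int cells of the GFP-high tdT-high gate, a 9.20-fold range. No group was without it: after thinning each cell to 5000 UMIs, at least 95.6% of cells in every group held an Eln UMI, so no type serves as a background for free RNA. In the order of the 14 Eln levels, no neighbouring pair had overlapping counting intervals. These intervals leave out the spread between cells, so the order of close neighbours is not settled by them.

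**Figure D1:**
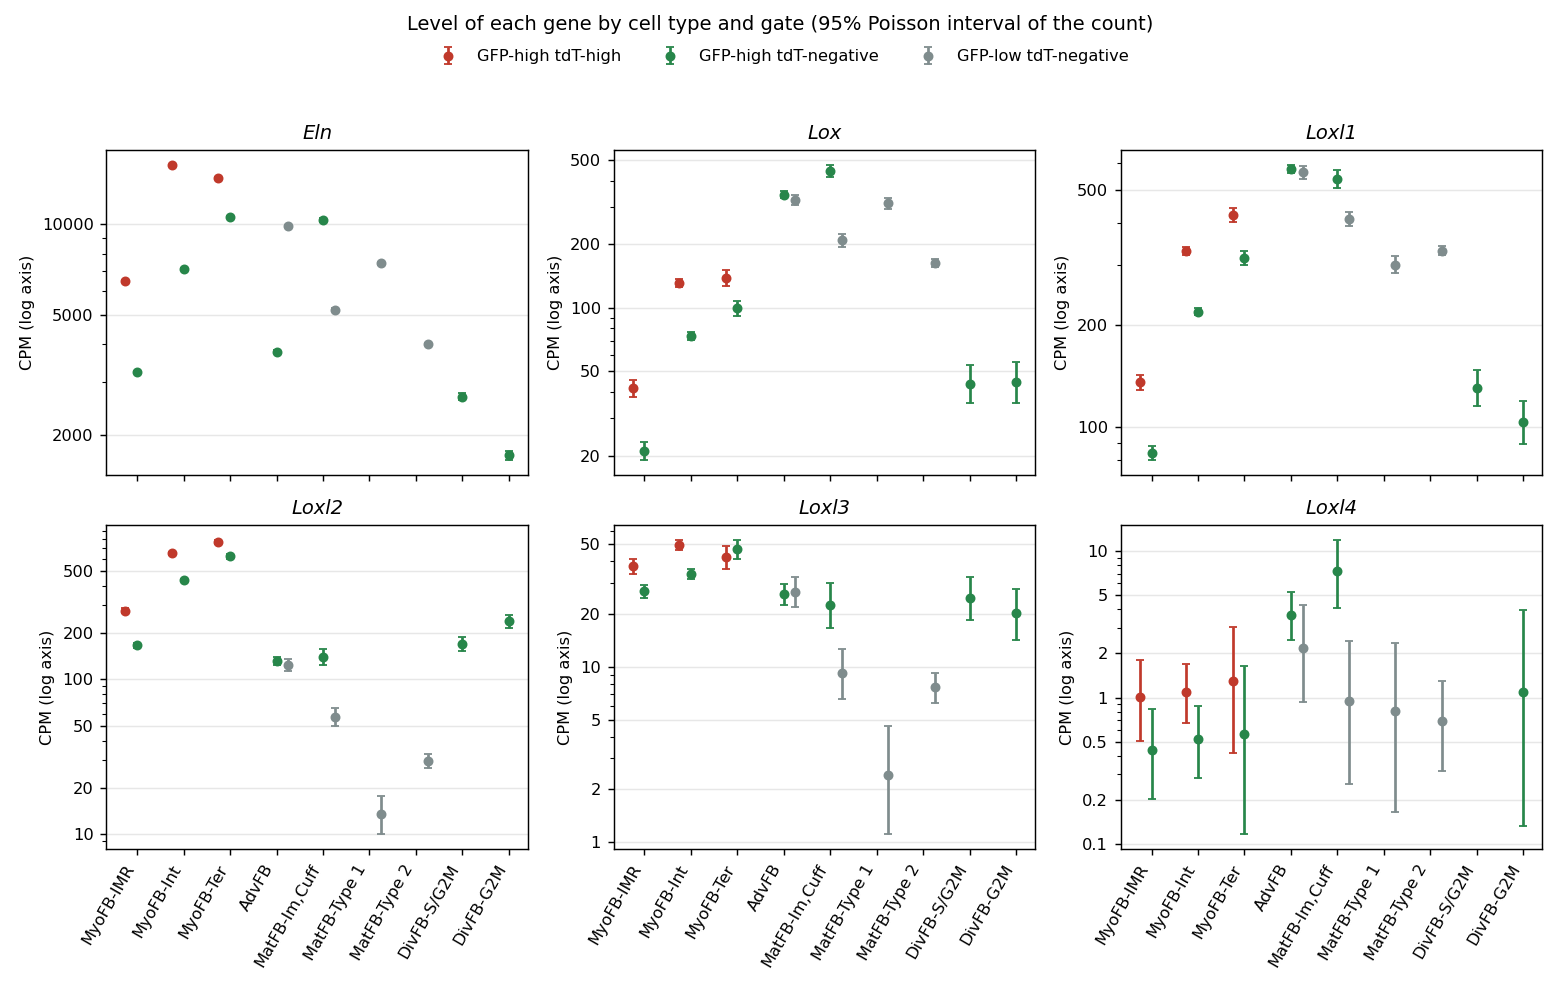
CPM of each of the 6 genes (log axes) by deposited cell type, coloured by gate, with 95% Poisson intervals of the summed count; groups of at least 50 cells. Among the groups drawn, Eln and Loxl2 peak in MyoFB cells of the GFP-high tdT-high gate, Lox and Loxl1 in AdvFB and MatFB-Im,Cuff cells. The single group with no Loxl4 UMI (DivFB-S/G2M) has no point.

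After MyoFB-Int, the next levels were 14246 CPM (14127 to 14365) in MyoFB-Ter of the GFP-high tdT-high gate and 10556 CPM (10469 to 10644) in MyoFB-Ter of the GFP-high tdT-negative gate. Types other than MyoFB also stood high. MatFB-Im,Cuff cells of the GFP-high tdT-negative gate had 10325 CPM (10188 to 10465), AdvFB cells of the GFP-low tdT-negative gate 9870 CPM (9769 to 9972) and MatFB-Type 1 cells of that gate 7421 CPM (7334 to 7509), all above the 7131 CPM (7100 to 7163) of MyoFB-Int cells in the GFP-high tdT-negative gate. Of the GFP-low AdvFB cells, 98 that were not contractile had 6432 CPM, below that MyoFB-Int level. Of the 110 MatFB-Im,Cuff cells of the GFP-high tdT-negative gate, 92 fell in 1 cluster, described with the gates. These had 12250 CPM and held 20497 of the 21384 Eln UMIs of the group.
The lower part of the order began with MyoFB-IMR cells of the GFP-high tdT-high gate at 6507 CPM (6459 to 6555), MatFB-Im,Cuff cells of the GFP-low gate at 5206 CPM and MatFB-Type 2 cells of that gate at 4010 CPM. AdvFB cells of the GFP-high tdT-negative gate had 3771 CPM and MyoFB-IMR cells of the same gate 3239 CPM. Dividing cells were lowest, with 2673 CPM in DivFB-S/G2M and 1708 CPM in DivFB-G2M cells of the GFP-high tdT-negative gate.

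The high Eln level of GFP-low AdvFB cells was carried in large part by a contractile minority. Of the 148 cells, 50 held at least 5 UMIs of Acta2, Tagln and Myh11 together after thinning. These 50 had 17002 CPM of Eln (16770 to 17238), against 6432 CPM (6333 to 6533) in the other 98. Their level was above the 15714 CPM of GFP-high tdT-high MyoFB-Int cells, the highest of the 14 groups. The 50 contractile cells stood at 4471 CPM of Acta2, smooth muscle actin, and 1516 CPM of Myh11, smooth muscle myosin. Both genes are among those that picked these cells. Their 5 smooth muscle markers summed to 2528 CPM, against 23.3 CPM in the other GFP-low AdvFB cells. Myh11 is also among those 5 markers, so the cut itself fixed part of this contrast. Their 9 adventitial fibroblast markers, which the cut did not use, summed to 1399 CPM, against 8448 CPM in the other cells. These adventitial markers thus go against the AdvFB label. In the GFP-high tdT-negative gate 5 of 328 AdvFB cells were contractile by the same rule, and all AdvFB cells there had 3771 CPM of Eln (3729 to 3813).

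The crosslinking enzymes divided the cell types in a way that Eln did not: in groups of at least 50 cells, Loxl2 was the main enzyme transcript of MyoFB and DivFB cells, Lox and Loxl1 those of AdvFB and MatFB cells. Loxl2, which in mouse acts on collagens in basement membranes among other substrates, had the widest range of the family, between 13.4 CPM (9.97 to 17.7) in MatFB-Type 1 cells of the GFP-low gate and 769 CPM (742 to 797) in MyoFB-Ter cells of the GFP-high tdT-high gate, 57.3-fold. Lox, the founding member and the enzyme most tied to elastin and fibrillar collagen, ran the other way. Lox was highest in MatFB-Im,Cuff cells of the GFP-high tdT-negative gate, at 445 CPM (416 to 474), and lowest in MyoFB-IMR cells of the same gate, at 21.0 CPM (19.1 to 23.1).
Between these ends, Lox had 342 CPM in GFP-high tdT-negative AdvFB, 324 CPM in GFP-low AdvFB and 312 CPM in MatFB-Type 1 cells, neighbours whose intervals overlap, and 209 CPM in MatFB-Im,Cuff and 162 CPM in MatFB-Type 2 cells of the GFP-low gate. MyoFB cells came next, with 138 CPM in MyoFB-Ter and 131 CPM in MyoFB-Int of the GFP-high tdT-high gate, which overlap, and 99.4 CPM in MyoFB-Ter and 73.3 CPM in MyoFB-Int of the GFP-high tdT-negative gate. All 6 AdvFB and MatFB groups thus stood above all 6 MyoFB groups in Lox. DivFB-G2M and DivFB-S/G2M cells had 44.4 and 43.9 CPM, overlapping each other and the 41.7 CPM of GFP-high tdT-high MyoFB-IMR cells.
In Loxl2 the order was led by MyoFB cells. After MyoFB-Ter, MyoFB-Int cells of the GFP-high tdT-high gate had 650 CPM and MyoFB-Ter cells of the GFP-high tdT-negative gate 620 CPM, which overlap, followed by 437 CPM in MyoFB-Int of the GFP-high tdT-negative gate, 278 CPM in MyoFB-IMR of the GFP-high tdT-high gate and 236 CPM in DivFB-G2M cells. DivFB-S/G2M cells at 170 CPM and MyoFB-IMR cells of the GFP-high tdT-negative gate at 166 CPM overlapped. Below them came 140 CPM in MatFB-Im,Cuff and 132 CPM in AdvFB of the GFP-high tdT-negative gate and 124 CPM in AdvFB of the GFP-low gate, all overlapping, then 57.1 CPM in MatFB-Im,Cuff and 29.8 CPM in MatFB-Type 2 of the GFP-low gate. All 6 MyoFB groups stood above all 6 AdvFB and MatFB groups in Loxl2.
Loxl1, which is needed for elastic fibre upkeep in adult mice, was highest in AdvFB cells, at 577 CPM (561 to 594) in the GFP-high tdT-negative gate and 565 CPM (541 to 590) in the GFP-low gate, levels whose intervals overlap each other and that of MatFB-Im,Cuff in the GFP-high tdT-negative gate, at 540 CPM. Its classes were less apart than those of Lox, since MyoFB-Ter cells of the GFP-high tdT-high gate, at 423 CPM, stood level with MatFB-Im,Cuff cells of the GFP-low gate, at 412 CPM, and above MatFB-Type 1 cells, at 302 CPM. Its lowest level was 84.1 CPM in MyoFB-IMR cells of the GFP-high tdT-negative gate. Loxl3 was low, between 2.42 CPM in MatFB-Type 1 cells of the GFP-low gate and 49.5 CPM in MyoFB-Int cells of the GFP-high tdT-high gate, and 10 of its 13 neighbouring pairs in the order overlapped. Loxl4 stood at the edge of detection, with 37, 74 and 26 UMIs in the GFP-high tdT-high, GFP-high tdT-negative and GFP-low tdT-negative libraries. Its highest level was 7.24 CPM (4.05 to 11.9) in MatFB-Im,Cuff cells of the GFP-high tdT-negative gate, and all 13 neighbouring pairs in its order overlapped.

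As shares of all lysyl oxidase UMIs, the make-up was close to constant among MyoFB types. Loxl2 took 55.6% to 57.3% of the enzyme UMIs in the 6 MyoFB groups of both GFP-high gates, although total enzyme levels differed between them. Lox took 7.06% to 11.3% there, Loxl1 27.5% to 30.8% and Loxl3 3.07% to 9.05%. In AdvFB and MatFB groups the order was turned round: Loxl2 took 2.13% to 12.2%, Lox 30.3% to 49.5% and Loxl1 46.8% to 62.3%. The thin MyoFB groups of the GFP-low gate, with 21 MyoFB-IMR, 22 MyoFB-Int and 23 MyoFB-Ter cells, had 60.6%, 52.4% and 49.4% Loxl2 in that order, near the MyoFB cells of the other gates and above every AdvFB and MatFB group of at least 50 cells. The few dividing cells of the GFP-low gate did not have Loxl2 in first place, with 21.1% Loxl2 and 45.2% Loxl1 in 12 DivFB-G2M cells and 33.8% Loxl2 and 42.3% Loxl1 in 3 DivFB-S/G2M cells. The shares compare 3′ counts of different genes, whose capture need not be equal.

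**Figure D2:**
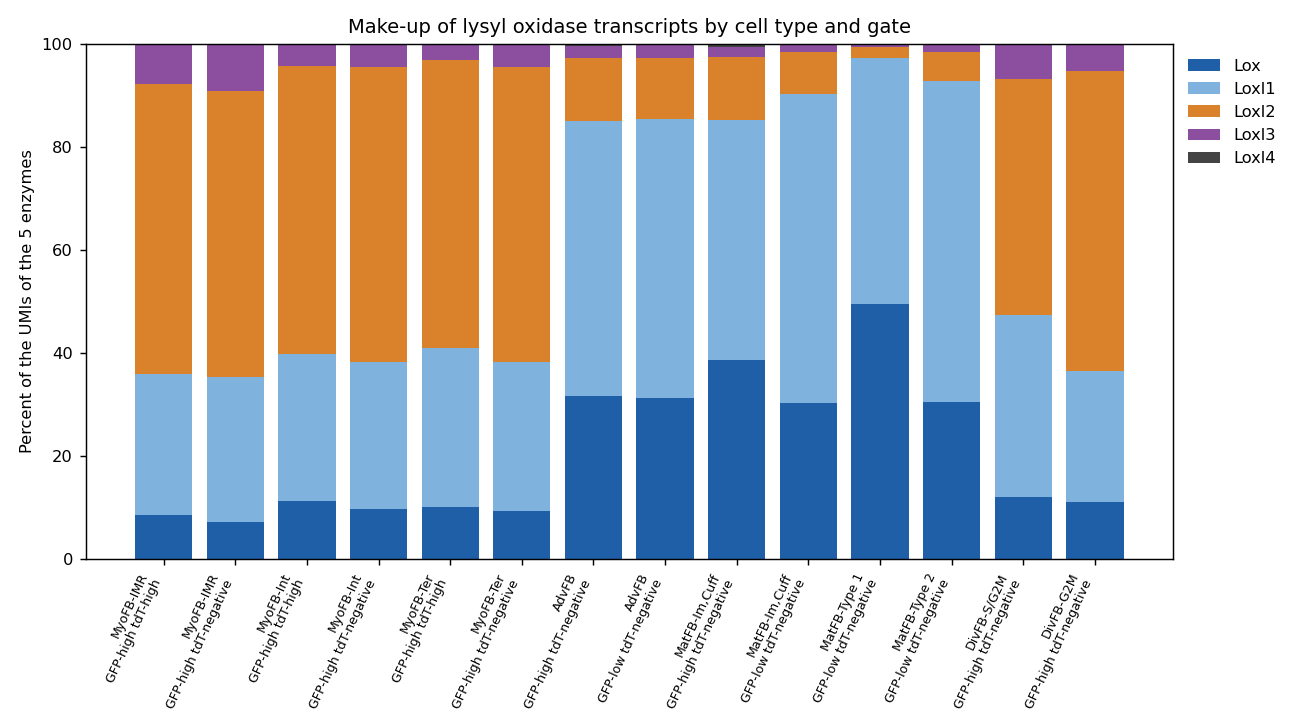
Stacked bars of the share of lysyl oxidase UMIs (percent, vertical axis) that each of the 5 enzymes took in each group of cell type and gate with at least 50 cells. Loxl2 takes the largest share in all MyoFB and DivFB groups, and Lox with Loxl1 together take most of every AdvFB and MatFB group.

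The same division held within 1 library, where sorting and depth are shared. In the GFP-high tdT-negative library, the 2659 MyoFB cells had 55.7 CPM of Lox, against 355 CPM in the 498 AdvFB and MatFB cells, 6.37-fold lower (6.07 to 6.68). Loxl1 was 3.21-fold lower (3.11 to 3.32), at 177 CPM in MyoFB cells and 567 CPM in AdvFB and MatFB cells. Loxl2 was 2.79-fold higher (2.64 to 2.95), at 351 CPM in MyoFB cells and 126 CPM in AdvFB and MatFB cells.
Eln was near even over these pools, at 5970 CPM in MyoFB cells and 5084 CPM in AdvFB and MatFB cells. The ratio was 1.17 (1.16 to 1.19). Both pools hold groups with unlike Eln levels. The 498 cells were 328 AdvFB cells at 3771 CPM, 110 MatFB-Im,Cuff cells at 10325 CPM, 16 MatFB-Type 1 and 44 MatFB-Type 2 cells. MyoFB-IMR, MyoFB-Int and MyoFB-Ter cells of this library had 3239, 7131 and 10556 CPM in that order. Loxl3 had a ratio of 1.37 (1.20 to 1.56), with 32.5 CPM in MyoFB cells and 23.8 CPM in AdvFB and MatFB cells. Loxl4, below the 10 CPM limit, had 26 UMIs in MyoFB cells and 46 in AdvFB and MatFB cells. At 0.494 and 4.02 CPM in that order, it was 8.14-fold lower in MyoFB cells (4.93 to 13.7). So 1 of the 5 members with at least 10 CPM was called higher and 2 were called lower, against 22.3% and 15.6% of all genes. The cells were typed from their transcripts, so the members' count is a description of the types.
Lox in MyoFB cells stood at 15.7% of its level in AdvFB and MatFB cells. Of the 9 adventitial fibroblast markers, 8 stood lower by that measure in the same cells, between 0.130% for Ly6a and 2.59% for Col14a1, and Cd34 stood at 73.5%. The 9 alveolar fibroblast markers stood between 0.797% for Inmt and 63.9% for Plin2. In the other direction, Loxl2 in AdvFB and MatFB cells stood at 35.8% of its MyoFB level. Of the 9 myofibroblast markers, 6 stood lower there, between 2.45% for Tagln and 21.4% for Stc1, while Pdgfra stood at 53.3%, Aspn at 207% and Hhip at 242%. The part of free RNA in these levels was not tested.

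Tropoelastin and enzyme transcripts were not made in a fixed ratio. Eln UMIs per enzyme UMI, all 5 enzymes together, were highest among the groups in MyoFB-Int and MyoFB-IMR cells of the GFP-high tdT-high gate, at 13.5 (13.3 to 13.7) and 13.2 (12.8 to 13.6). In the GFP-high tdT-negative gate MyoFB-Int cells had 9.33 (9.20 to 9.46) and MyoFB-IMR cells 10.9 (10.6 to 11.2). MatFB-Type 1 cells of the GFP-low gate, with little Loxl2, had 11.8 (11.3 to 12.3).
The lowest ratio was 3.49 (3.41 to 3.57) in AdvFB cells of the GFP-high tdT-negative gate, which combine the highest Loxl1 level of any group with an Eln level near the bottom of the order. AdvFB cells of the GFP-low gate had 9.47, which was 16.3 (15.4 to 17.2) in the contractile cells and 6.18 (5.93 to 6.45) in the rest. DivFB-G2M cells had 4.21 (3.88 to 4.56).

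Along the deposited MyoFB types, all of the genes except Loxl3 and the barely detected Loxl4 were more than 2-fold higher in MyoFB-Int than in MyoFB-IMR cells, in both GFP-high libraries. Lox differed most. Among GFP-high tdT-high cells it was at 131 CPM in MyoFB-Int and 41.7 CPM in MyoFB-IMR, 3.14-fold higher (2.84 to 3.48). Among GFP-high tdT-negative cells it was at 73.3 CPM in MyoFB-Int and 21.0 CPM in MyoFB-IMR, 3.48-fold higher (3.14 to 3.88).
Eln was 2.41-fold (2.40 to 2.43) higher in MyoFB-Int than in MyoFB-IMR cells of the GFP-high tdT-high library and 2.20-fold (2.18 to 2.22) in the GFP-high tdT-negative library. Loxl1 was 2.44-fold and 2.61-fold higher, Loxl2 2.34-fold and 2.64-fold, and Loxl3, with ratios of 1.32 and 1.25, was not called in either library. In each library 4 members were called higher, against 5.51% of all genes higher and 7.5% lower in the GFP-high tdT-high library, and 4.07% and 4.71% in the GFP-high tdT-negative library.
From MyoFB-Int to MyoFB-Ter the differences were smaller and no member was called in either library. In the GFP-high tdT-negative library the 5 measured members were all higher in MyoFB-Ter, with ratios of 1.36 to 1.48, against 3% of all genes called higher and 2.42% lower. In the GFP-high tdT-high library the ratios were 0.91 for Eln, 1.06 for Lox, 1.28 for Loxl1, 1.18 for Loxl2 and 0.85 for Loxl3, against 6.9% called higher and 6.41% lower. The direction of Eln there depends on which MyoFB-Ter cells are taken: 137 of the 190, in a separate cluster described with the gates, had 11854 CPM of Eln and the other 53 had 20767 CPM, below and above the 15714 CPM of MyoFB-Int. The cells were typed from the same transcripts, so these levels are a description of the types.

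The comparison of GFP-high tdT-high with GFP-high tdT-negative cells asks how myofibroblasts labelled through Fgf18 differ from the GFP-high cells that were not. Over all cells, Eln was 2.17-fold higher (2.16 to 2.18), at 12128 CPM in GFP-high tdT-high and 5578 CPM in GFP-high tdT-negative cells. Loxl2 was 1.74-fold higher (1.71 to 1.78), at 530 CPM in GFP-high tdT-high and 304 CPM in GFP-high tdT-negative cells. These 2 of 5 measured members were called higher and none lower, against 3.17% of all genes called higher and 4.73% called lower. With the shared types weighted equally Loxl2 lost its call (log2 ratio 0.47) and Lox gained one (0.67). Loxl3 had a ratio of 1.43 (1.34 to 1.53), with 43.8 CPM in GFP-high tdT-high and 30.6 CPM in GFP-high tdT-negative cells, and Loxl1 one of 1.16 (1.13 to 1.19), with 275 and 238 CPM. Lox was near even, at 101 CPM (97.4 to 104) in GFP-high tdT-high and 105 CPM (102 to 107) in GFP-high tdT-negative cells, a ratio of 0.96 (0.92 to 1.00).

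Within MyoFB types, Lox was not even. In MyoFB-IMR it had 41.7 CPM in GFP-high tdT-high and 21.0 CPM in GFP-high tdT-negative cells, 1.98-fold higher (1.73 to 2.27). In MyoFB-Int it had 131 CPM in GFP-high tdT-high and 73.3 CPM in GFP-high tdT-negative cells, 1.79-fold higher (1.68 to 1.90). AdvFB and MatFB cells, the types richest in Lox, were 11 of the 1511 GFP-high tdT-high cells and 498 of the 3347 GFP-high tdT-negative cells.
Eln was 2.01-fold higher (1.99 to 2.03) in GFP-high tdT-high than in GFP-high tdT-negative MyoFB-IMR cells and 2.20-fold higher (2.19 to 2.22) in MyoFB-Int cells. Loxl1 was 1.61-fold and 1.51-fold higher in the same 2 types. Loxl2 was 1.67-fold higher (1.59 to 1.76) in MyoFB-IMR cells, and in MyoFB-Int cells, with a ratio of 1.49 (1.45 to 1.52), it was just short of the 1.5-fold limit.
In MyoFB-IMR cells 4 of 5 measured members were called higher, against 2.35% of all genes higher and 0.994% lower, and in MyoFB-Int cells 3 of 5, against 3.18% and 2.54%. Loxl1 at 1.51 and Loxl2 at 1.49 in MyoFB-Int lie just inside and just outside the limit. Eln moved further than Loxl1, Loxl2 and Loxl3 in both types.

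**Figure D3:**
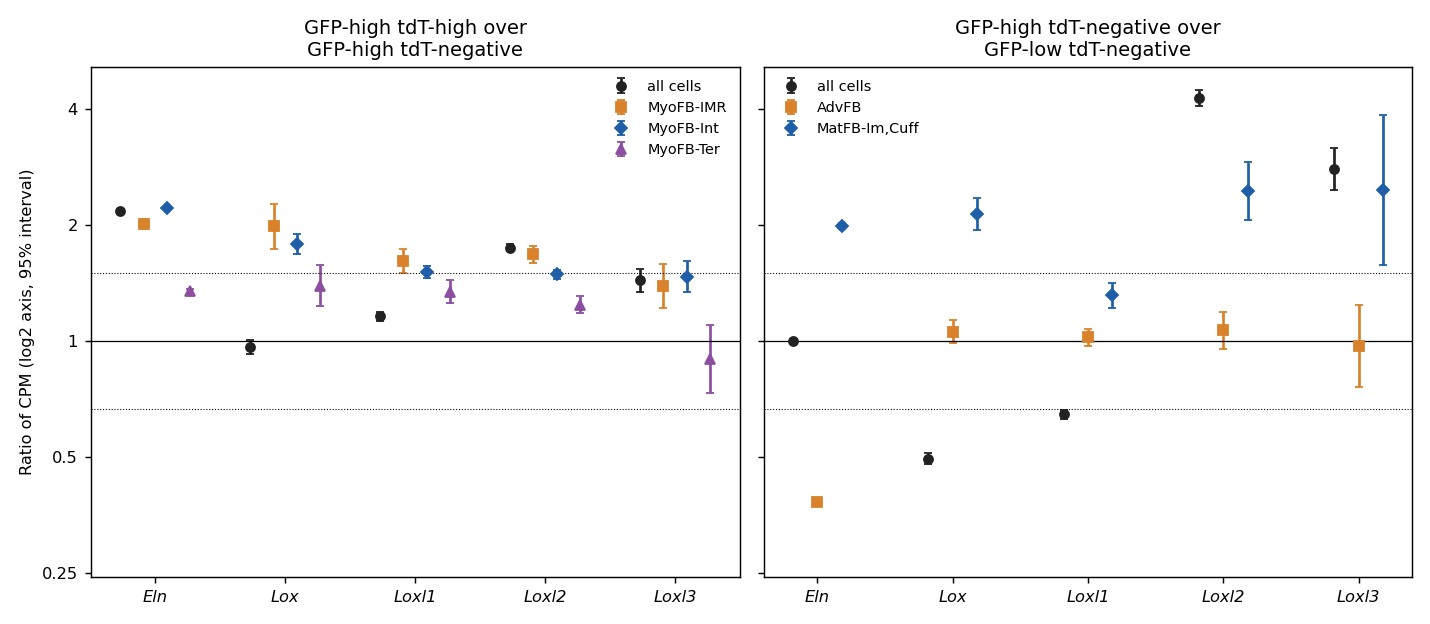
Ratio of CPM (log2 axis) for 5 members with 95% counting intervals, for GFP-high tdT-high over GFP-high tdT-negative (left) and GFP-high tdT-negative over GFP-low cells (right), over all cells and within types; dotted lines mark 1.5-fold. On the left Lox sits at 0.96 over all cells but at 1.98 and 1.79 within MyoFB-IMR and MyoFB-Int, and on the right Eln sits at 1.00 over all cells but apart in AdvFB and MatFB-Im,Cuff.

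In MyoFB-Ter cells the 2 gates held different cells under 1 name. Of the 190 GFP-high tdT-high MyoFB-Ter cells, 137 fell in a separate cluster when cells were grouped without the 6 genes, against 5 of 303 GFP-high tdT-negative cells. Those 137 cells had 1719 CPM of Hhip and 12.7 CPM of Pdgfra, and their smooth muscle markers summed to 2456 CPM, against 1419 CPM in the other 53. Over all MyoFB-Ter cells, Eln stood at 14246 CPM in GFP-high tdT-high and 10556 CPM in GFP-high tdT-negative cells, a ratio of 1.35 (1.33 to 1.36), and 0 of 5 measured members were called, against 8.16% of all genes higher and 10.4% lower.
Outside the separate cluster, a subset set apart only once its cells had been looked at, Eln was 1.97-fold higher (1.94 to 2.00), at 20767 CPM in 53 GFP-high tdT-high cells and 10556 CPM in 298 GFP-high tdT-negative cells. There Lox was 1.62-fold, Loxl1 1.56-fold and Loxl2 1.27-fold higher, so 3 of 5 were called, against 8.26% and 14.1% of all genes. The 137 cells inside it had 11854 CPM of Eln.
Grouping the cells without the members gave 8 clusters with at least 50 cells in both GFP-high libraries. Eln was higher in GFP-high tdT-high cells in 8 of the 8, with ratios of 1.44 to 2.39 and a median of 1.74, and 7 were past 1.5-fold. The enzymes had lower medians, of 1.33 for Lox, 1.20 for Loxl1, 1.23 for Loxl2 and 1.28 for Loxl3, with ratios above 1 in all 8 clusters for these 4 genes. Of the 8 clusters, 3 were past 1.5-fold for Lox and 1 each for Loxl1, Loxl2 and Loxl3.

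The comparison of GFP-high tdT-negative with GFP-low tdT-negative cells sets the level of the Pdgfra reporter against the family. Over all cells Eln did not separate the gates, at 5578 CPM in GFP-high tdT-negative and 5569 CPM in GFP-low tdT-negative cells, while 4 of the 5 measured members were called. Loxl2 was 4.27-fold higher (4.07 to 4.47), at 304 CPM in GFP-high tdT-negative and 71.2 CPM in GFP-low tdT-negative cells. Loxl3 was 2.78-fold higher (2.46 to 3.16), with 30.6 CPM in GFP-high tdT-negative and 11 CPM in GFP-low tdT-negative cells.
Lox was 2.02-fold lower (1.95 to 2.09), at 105 CPM in GFP-high tdT-negative and 211 CPM in GFP-low tdT-negative cells, and Loxl1 1.55-fold lower (1.51 to 1.59), at 238 and 368 CPM in the same order. Here 2 members were higher, against 18% of all genes, and 2 lower, against 12.5%. The gates hold different types: MyoFB types were 2659 of 3347 GFP-high tdT-negative cells and 66 of 1284 GFP-low tdT-negative cells. With the 2 types shared by both gates weighted equally, 0 members were called, and Lox was higher, by 0.56 on the log2 scale. Loxl2 was also still higher there, by 0.58, just short of the 1.5-fold limit. TMM scaling shifts all log2 ratios of this comparison by -0.12, with which Eln would lie below even.

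Within those 2 shared types Eln went in opposite directions. In AdvFB cells it was 2.62-fold lower (2.58 to 2.66), at 3771 CPM in GFP-high tdT-negative and 9870 CPM in GFP-low tdT-negative cells, while Lox, Loxl1, Loxl2 and Loxl3 had ratios of 0.97 to 1.07. Eln alone of 5 was called, against 8.21% of all genes higher and 9.68% lower. Without the contractile cells Eln was 1.73-fold lower (1.69 to 1.76), at 3728 CPM in GFP-high tdT-negative and 6432 CPM in GFP-low tdT-negative cells, and it was again the 1 member called, against 6.48% and 6.14% of all genes.
In MatFB-Im,Cuff cells Eln was 1.98-fold higher (1.95 to 2.02), at 10325 CPM in GFP-high tdT-negative and 5206 CPM in GFP-low tdT-negative cells. Lox was 2.13-fold higher (1.94 to 2.34), Loxl2 2.44-fold (2.05 to 2.91) and Loxl3 2.45-fold (1.57 to 3.85), so 4 of 5 were called higher, against 17.5% of all genes higher and 11.8% lower.
The type held different cells in the 2 gates, since 92 of its 110 GFP-high tdT-negative cells but 18 of its 205 GFP-low tdT-negative cells fell in 1 cluster. Inside that cluster, likewise set apart only once its cells had been looked at, Eln had 12250 CPM in GFP-high tdT-negative and 10320 CPM in GFP-low tdT-negative cells, a ratio of 1.19 (1.15 to 1.23). There Loxl2 had a ratio of 0.76 (0.58 to 1.01), the opposite direction, and 0 of 5 members were called, against 18.2% and 16.6% of all genes.

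Single cells of 1 type differed widely in Eln. In GFP-high tdT-high MyoFB-Int cells the 10th and 90th percentiles were 6147 and 26449 CPM around a median of 14892, and in GFP-high tdT-negative MyoFB-Int cells 1609 and 14434 CPM around a median of 6102. MyoFB-IMR cells had medians of 5267 CPM in the GFP-high tdT-high and 2256 CPM in the GFP-high tdT-negative gate. The ranges of the gates overlap over much of their length, with the 10th percentile, the median and the 90th percentile all higher in the GFP-high tdT-high gate.
GFP-low AdvFB cells spread furthest at the top, with a maximum of 53546 CPM and a median of 7269, and their contractile cells had a median of 13260.

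**Figure D4:**
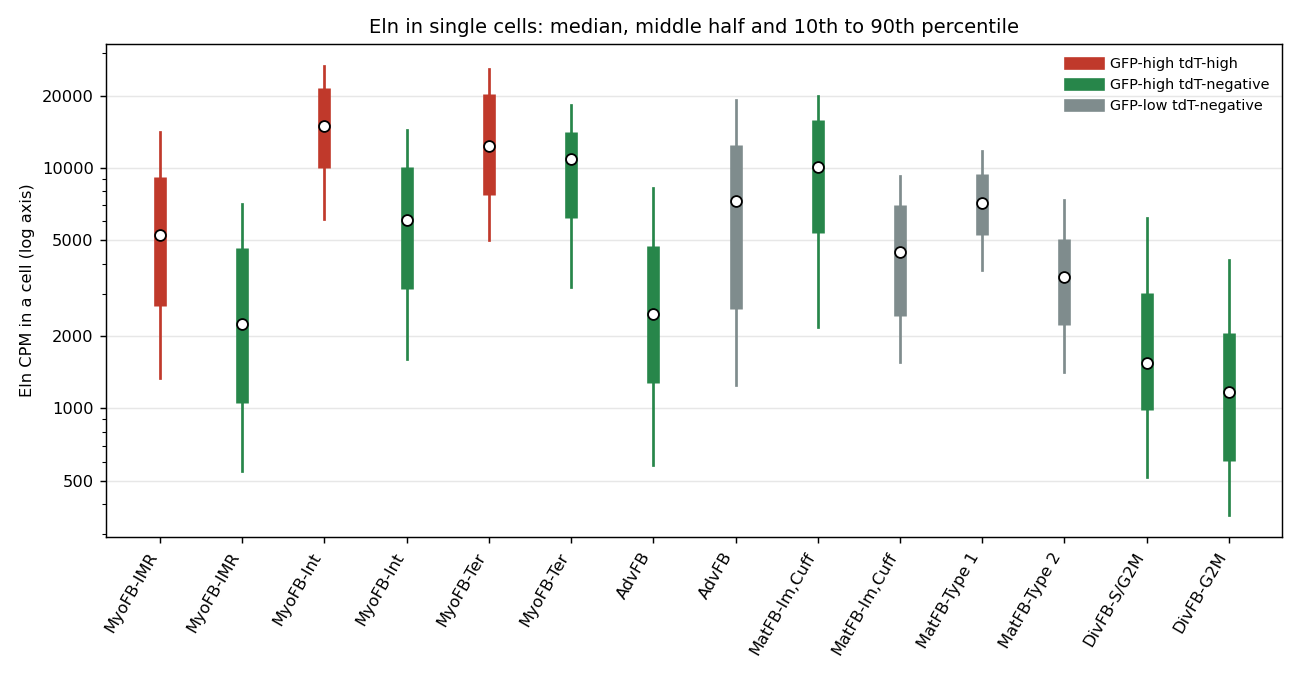
Eln CPM in single cells (log axis) by group: circles are medians, thick bars the 25th to 75th percentile, thin lines the 10th to 90th; colours are gates. The medians run between 1171 CPM in DivFB-G2M and 14892 CPM in GFP-high tdT-high MyoFB-Int cells.

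Co-expression was counted on cells thinned to 5000 UMIs, where a gene of low level is often missed, so a cell without a UMI is not shown to lack the gene. In GFP-high tdT-high cells 81.6% held a Loxl2 UMI, 66.2% a Loxl1 UMI, 33.8% a Lox UMI, 19.8% a Loxl3 UMI and 0.728% a Loxl4 UMI. In GFP-high tdT-negative cells the same shares were 62.2%, 54.2%, 28.1%, 14.0% and 0.418%, and in GFP-low tdT-negative cells Loxl1 led at 77.2%, before Lox at 56.1%, Loxl2 at 18.6%, Loxl3 at 5.53% and Loxl4 at 0.389%. With all UMIs kept, Loxl2 UMIs were found in 96% of GFP-high tdT-high, 88.2% of GFP-high tdT-negative and 41.0% of GFP-low tdT-negative cells. Nearly every cell with an enzyme UMI also held Eln, as it must where Eln is in nearly all cells.
At least 3 of the enzymes were seen in 41.4% of GFP-high tdT-high and 20.6% of GFP-high tdT-negative MyoFB-Int cells, and in 13.3% and 3.78% of MyoFB-IMR cells in the same order. MyoFB-Ter cells had 46.8% and 38.3%. No enzyme UMI was found in 18.2% of GFP-high tdT-high MyoFB-IMR cells and in 30.6% of GFP-high tdT-negative ones.

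**Figure D5:**
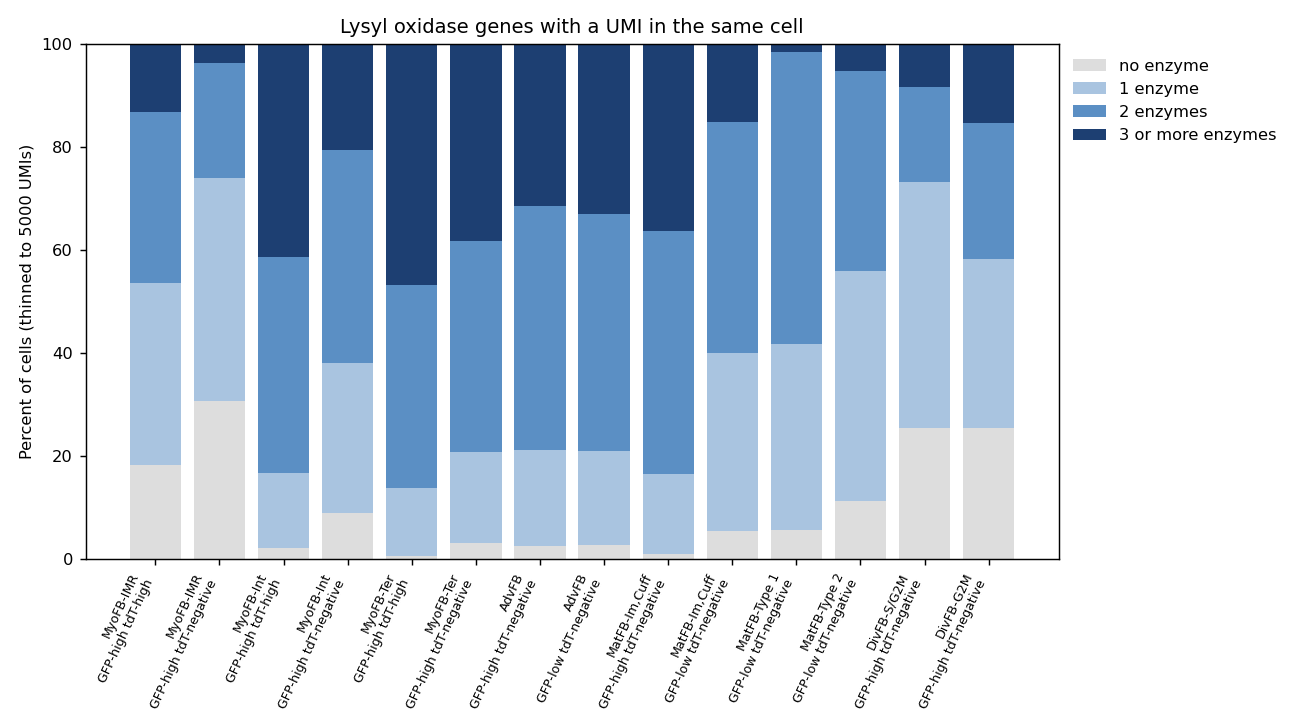
Percent of cells (vertical axis, cells thinned to 5000 UMIs) with a UMI of none, 1, 2, or 3 or more of the 5 lysyl oxidase genes, by group. The share with 3 or more is 46.8% in GFP-high tdT-high MyoFB-Ter cells and 1.51% in GFP-low MatFB-Type 1 cells.

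Within a group, Eln was compared between cells with and without a UMI of a given enzyme, and Loxl4 was too sparse for this in every group. Eln was higher in cells with a Lox UMI than in cells without one in 14 of 14 groups, with a median ratio of 1.30 (1.03 to 1.65), and likewise for Loxl1 in 14 of 14 groups (median 1.22, range 1.09 to 1.99). For Loxl2 the ratio was above 1 in 10 of 13 groups that held at least 10 cells of each kind (median 1.23, range 0.87 to 2.06), and for Loxl3 in 9 of 13 (median 1.08, range 0.63 to 1.37). Spearman's rho over cells had medians of 0.15 for Lox, 0.16 for Loxl1, 0.15 for Loxl2 and 0.045 for Loxl3, where the cells of a group share 1 library, and such weak values in sparse counts are no finding.
Of 64 pairs of enzymes and groups with at least 10 cells expected by the product of the single shares, the observed joint share was 0.80 to 1.32 times that product, with a median of 1.02. In all 64 the product lay within the interval of the joint share. That interval does not hold the single shares fixed, so it is too wide to show whether a pair departs from its product. Whether the enzymes of a pair vary independently within a group was not tested.

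The other genes of elastic fibre assembly were mostly lower in MyoFB cells than in AdvFB and MatFB cells, unlike Eln itself. Within the GFP-high tdT-negative library, 2 of 19 measured genes of the assembly list were higher and 13 lower in MyoFB cells, against 22.3% and 15.6% of all genes, with a median log2 ratio of -1.81 against 0.22 over all genes. Higher were Ltbp2, a latent TGF-beta binding protein that associates with fibrillin microfibrils, at 849 CPM in MyoFB and 152 CPM in AdvFB and MatFB cells, and Adamts10, a protease of the microfibril, at 373 and 144 CPM. Mfap4, a microfibril-associated protein, stood at 137 CPM in MyoFB cells and 2778 CPM in AdvFB and MatFB cells. Fbn1, the main microfibril protein, stood at 736 and 1559 CPM in the same order, and Fbln5, which brings tropoelastin to the microfibril, at 13.2 and 475 CPM.
Among the genes for maturation, docking and copper supply of the enzymes, 1 of 11 was higher and 7 lower (median -0.82), to be read against the same 22.3%, 15.6% and median of 0.22, as are the next 2 lists. The 1 was Thbs1, thrombospondin 1, at 286 CPM in MyoFB and 179 CPM in AdvFB and MatFB cells. Postn, a docking protein for the protease that activates Lox, stood at 39.5 CPM in MyoFB and 1342 CPM in AdvFB and MatFB cells, and Fn1, fibronectin, at 166 and 1348 CPM. Of the collagens, which are the enzymes' other substrates, 0 of 9 were higher and 7 lower (median -2.11), with Col1a1 at 767 CPM in MyoFB and 14267 CPM in AdvFB and MatFB cells, Col1a2 at 1176 and 15163 CPM, and Col3a1 at 2117 and 19448 CPM. Of the elastin turnover genes 1 of 10 was higher and 6 lower (median -0.65). The 1 was Serpine2, a serine protease inhibitor, at 361 CPM in MyoFB and 95 CPM in AdvFB and MatFB cells, while Timp2, a metalloprotease inhibitor, stood at 259 and 994 CPM and Mmp14, a membrane-bound metalloprotease, at 296 and 453 CPM.

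Between the GFP-high gates, the counts of the assembly list differed over all cells and within types. Over all cells 0 of 17 measured genes were higher and 7 lower in GFP-high tdT-high cells, against 3.17% and 4.73% of all genes, with a median log2 ratio of -0.26 against -0.05 over all genes. Fbln5 stood at 20.1 CPM in GFP-high tdT-high and 90.3 CPM in GFP-high tdT-negative cells, Mfap5 at 55.4 and 227 CPM, and Tnxb at 37.5 and 81.9 CPM. Col1a1 stood at 1281 CPM in GFP-high tdT-high and 3006 CPM in GFP-high tdT-negative cells, and Col1a2 at 1603 and 3491 CPM. Pcolce, an enhancer of procollagen processing, was 2.56-fold lower.
In MyoFB-Int cells 5 of 15 measured assembly genes were higher and 0 lower, against 3.18% and 2.54% of all genes (median log2 ratio 0.30, against -0.07 over all genes). In MyoFB-Ter cells 6 of 16 were higher and 2 lower, against 8.16% and 10.4% of all genes (median 0.32, against -0.10). In MyoFB-IMR cells 2 of 15 were higher and 0 lower, against 2.35% and 0.994% of all genes, with a median of -0.04 against -0.05. Within MyoFB-Int, Mfap4 stood at 334 CPM in GFP-high tdT-high and 162 CPM in GFP-high tdT-negative cells, Mfap5 at 48.4 and 11.9 CPM, and Tnxb at 47.9 and 22.8 CPM. Col1a1 stood at 1416 and 864 CPM and Postn at 113 and 36.6 CPM. Fbn1 was not called, with 757 CPM in GFP-high tdT-high and 797 CPM in GFP-high tdT-negative MyoFB-Int cells. Serpine2 was higher both over all cells, at 720 CPM in GFP-high tdT-high and 309 CPM in GFP-high tdT-negative cells, and within MyoFB-Int, at 848 and 414 CPM.

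Between GFP-high tdT-negative and GFP-low tdT-negative cells, 7 of 18 measured assembly genes were higher, against 18% of all genes, and 5 lower, against 12.5% (median log2 ratio 0.32, against 0.16 over all genes). Higher were Ltbp2, at 715 CPM in GFP-high tdT-negative and 129 CPM in GFP-low tdT-negative cells, Fbn2, at 209 and 49.7 CPM, Fbln1, at 218 and 92.9 CPM, and Adamts10, at 327 and 155 CPM. Lower were Mfap4, at 573 CPM in GFP-high tdT-negative and 6680 CPM in GFP-low tdT-negative cells, Fbln5, at 90.3 and 484 CPM, Adamtsl2, at 14.7 and 157 CPM, and Ltbp1, at 53.0 and 146 CPM. Fn1 had 364 CPM in GFP-high tdT-negative and 2984 CPM in GFP-low tdT-negative cells, Pcolce2 88.3 and 468 CPM, and Thbs1 263 and 115 CPM. Col1a1, Col1a2 and Col3a1 had ratios of 1.05, 1.13 and 1.37, of which the first would be below even with the shift of TMM scaling.

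Over the 14 groups, the enzymes fell into a pair of patterns and Eln into neither. As Pearson's r of log2(CPM + 1), Lox and Loxl1 had 0.94 and Loxl2 and Loxl3 0.95, while Lox and Loxl2 had -0.39. Eln had 0.61 with Loxl1, 0.47 with Lox, 0.33 with Loxl2 and 0.29 with Loxl3. These are descriptions over groups that share 3 libraries and their depth.
Among 5677 genes with at least 50 CPM in some group, those nearest to Eln were Aspn (r = 0.86, Spearman's rho = 0.82), Dtx3 (0.84, 0.86), Atf7 (0.82, 0.85), Clstn1 (0.82, 0.78) and Fstl3 (0.82, 0.78). Nearest to Lox were Peg3 and Klf13 (both r = 0.97) and Dennd4a (0.96), and nearest to Loxl1 were Sod3, Ltbp1 (both 0.97) and Myof (0.95). Nearest to Loxl2 were Ehd4, Prnp and Cdh4 (each 0.97) and nearest to Loxl3 were Fhl2, Sema3c and Pxdn (each 0.96). Of the listed fibre assembly genes, Ltbp1 is the 1 that appears in these lists.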

How the data were processed

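Single-cell libraries were made from sorted lung cells with 10x Genomics 3′ chemistry, per the labels' protocols, and the submitters' processing notes name Cell Ranger 7.0.0 and mm10. The authors' deposited table of 6142 cells gives unnormalized UMI counts, and a second deposited table each cell's gate, type, UMI count and percent of mitochondrial UMIs, at most 19.3%. The authors' filters, doublet handling and typing are not given in the sources used here, and neither is the number of pups in a library. Each library held many cells with Y-linked UMIs alone and many with Xist UMIs alone, so it pooled pups of both sexes. All deposited cells were kept, and no doublets were removed.

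UMIs were summed by group and divided by the group's total (CPM). Poisson, conditional binomial and Clopper-Pearson intervals at 95% cover counting error only. Cells were thinned to 5000 UMIs (the shallowest held 5446) for shares. Leiden clusters (15, resolution 1.0, 2000 genes, 30 components, 15 neighbours) were made without the 6 members. The members, gene lists and rules were chosen with earlier results of these data known. Genes named beside a member had the highest Pearson's r over the groups (5 for Eln, 3 for each enzyme but Loxl4). Of each pathway list, the 3 of highest CPM and those past 2-fold between gates with at least 50 CPM were named. The turnover list has 16 genes, the others 20, 13 and 10. The calculation was checked on simulated counts. Alternatives were TMM (edgeR 4.0.16) and DESeq2 1.42.0 size factors, pseudocounts, totals, cell filters, sexes and clusters. Software was R 4.3.3, leidenalg 0.10.2, scipy 1.17.1 and numpy 2.4.6 under Python 3.11.15.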

Additional observations from a re-analysis of the deposited data

Results flagged for a closer look

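Eln moved in opposite directions between the same 2 gates in the 2 cell types that both gates hold in number. In MatFB-Im,Cuff cells it was 1.98-fold higher in GFP-high tdT-negative than in GFP-low tdT-negative cells, and in AdvFB cells it was 2.62-fold lower. The difference between the types was not tested, since each gate has 1 library. In each type the gates also held different cells: 5 of 328 GFP-high tdT-negative AdvFB cells were contractile, against 50 of 148 GFP-low ones, and 92 of 110 GFP-high tdT-negative MatFB-Im,Cuff cells fell in 1 cluster against 18 of 205 GFP-low ones. Without the contractile cells Eln was still 1.73-fold lower in GFP-high tdT-negative AdvFB cells, and inside that cluster the ratio in MatFB-Im,Cuff was 1.19.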

How the results depend on the processing

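No paired analysis was possible because each gate has 1 library. Of 252 values of single members under alternatives, 176 moved by less than their counting interval, 73 moved further with their direction kept or uncalled, and 3 reversed. The reversals were Lox (log2 ratio 0.56) and Loxl1 (0.19) between the GFP-high tdT-negative and the GFP-low gate with shared types weighted equally, and Loxl2 in MatFB-Im,Cuff inside 1 cluster (-0.39); the alternatives by cluster were chosen after seeing the data. Between these gates 4 members were called over all cells, 2 in cells with Xist and no Y-linked UMIs, where Lox (-0.58) and Loxl1 (-0.43) fell short of 1.5-fold, and 0 with shared types weighted equally. Without DivFB cells Loxl1 stood at -0.58, just short of the limit. TMM shifted all log2 ratios there by -0.12 and changed no call of a member. For GFP-high tdT-high over GFP-high tdT-negative cells the log2 ratio of Eln ranged between 0.80 and 1.13 over all alternatives, and that of Lox between -0.45, in cells with Xist and no Y-linked UMIs, and 0.67, with shared types weighted equally, where Loxl2, at 0.47, lost its call and Lox gained one. Background genes past 1.5-fold numbered 768 in that comparison, 1763 with no minimum and 254 at 50 CPM, and 3067 in the other, 6011 and 1393 in the same order. Cells with an enzyme UMI had at least 1.5 times the Eln of cells without in 6 of 54 pairs of enzyme and group, in 27 of 50 with all UMIs kept, and in 2 of 14 over all cells of a gate. With all UMIs kept the cells differ in depth, so the 27 of 50 is not at equal depth and compares poorly with the thinned count. The part of depth in it was not tested. For the values that moved or reversed, the cause was not tested. Loxl4 is sparse and stood below the 10 CPM limit in every comparison, so no ratio of it was called.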
